A study of Mus musculus with 3 samples.

Results

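Ly6a, Ly6c1, Ly6c2 and Ly6e are mouse genes of the Ly6/uPAR family, and they are 4 of the 17121 genes listed in the deposited table. They were chosen by gene symbol, with the read counts and TPM of all 3 samples already known, so their values are a description and carry no test. RNA was sequenced from CD8+ T cells of wild-type mice, isolated from spleen and lymph node and cultured for 3 days. All 3 groups, of 1 sample each, were stimulated with anti-CD3 and anti-CD28 (1 µg/ml), antibodies that engage the T cell receptor and a co-stimulatory receptor. Young TCR cells came from mice of 6 weeks and received these antibodies alone. Young TRM cells, also from 6-week mice, had IL-15 (20 ng/ml) and TGFβ (5 ng/ml) added, a mixture named for tissue-resident memory T cells (TRM). Aged TRM cells received the same antibodies and cytokines and came from mice of 18 months. Strain, sex and the number of mice behind a sample are not given in the labels, and an aged sample without cytokines was not analysed here. These are cultured spleen and lymph node cells, not cells taken from a tissue barrier.

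Ly6 proteins are small disulfide-bonded surface proteins held in the outer membrane by a glycosylphosphatidylinositol (GPI) lipid anchor. On T cells they rise with activation and with interferon, and several serve as markers: Ly6a encodes Sca-1, a marker of blood stem cells that activated T cells also carry, and Ly6c1 and Ly6c2 encode the Ly-6C antigen of memory CD8+ T cells, monocytes and some endothelium. Ly6e encodes Sca-2 (also TSA-1), an antigen of immature thymocytes that is known for effects on virus entry.

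All 4 genes lie on chromosome 15, within 157 kb of each other in assembly GRCm38. Ly6e (gene ID 17069) occupies chr15:74955025-74959904 on the plus strand. Ly6a (110454) at chr15:74994877-74998031, Ly6c1 (17067) at chr15:75044018-75048920 and Ly6c2 (100041546) at chr15:75108161-75112066 are on the minus strand. Coding sequences of 1 GENCODE transcript per gene, without the stop codon, were 408 bases for Ly6e, 402 for Ly6a and 393 for each Ly6c gene. The Ly6c1 and Ly6c2 coding sequences were 97.7% identical, with 9 mismatches and no gap. Ly6a was 81.8% identical to Ly6c1 and 81.6% to Ly6c2, and Ly6e was 49.5% to 52.2% identical to the other members. The first 300 coding bases of the Ly6c pair are shown because reads from them are hard to assign: capitals mark the 7 positions at which the genes differ, and the long lower-case stretch is shared.

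Ly6c1: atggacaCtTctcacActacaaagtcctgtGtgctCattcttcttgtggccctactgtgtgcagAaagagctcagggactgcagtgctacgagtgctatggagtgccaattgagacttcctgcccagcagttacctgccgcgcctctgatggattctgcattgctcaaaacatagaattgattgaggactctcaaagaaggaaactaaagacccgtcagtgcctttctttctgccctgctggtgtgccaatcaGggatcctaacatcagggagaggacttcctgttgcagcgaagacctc
Ly6c2: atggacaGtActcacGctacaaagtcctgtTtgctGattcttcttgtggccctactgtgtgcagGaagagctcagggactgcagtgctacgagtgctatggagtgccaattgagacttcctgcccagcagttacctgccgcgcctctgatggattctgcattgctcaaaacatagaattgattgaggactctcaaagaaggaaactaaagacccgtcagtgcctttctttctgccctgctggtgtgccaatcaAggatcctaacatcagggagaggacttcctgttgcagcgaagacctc

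Over the whole transcripts the longest run shared by the pair was 188 bases, and 252 of the 795 windows of 50 bases in the Ly6c1 transcript (31.7%) also occurred in that of Ly6c2. Ly6a and Ly6c2 shared 3 of 770 such windows, and Ly6e shared none with the other members. The counting of reads that fit more than 1 gene is not described in the labels, so the division of reads between Ly6c1 and Ly6c2 is uncertain and their sum is given beside them.

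Levels were highest in young TRM for each of the 4 genes. Levels are in CPM (a gene's reads relative to all reads of the library, scaled by the trimmed-mean method) unless TPM is named. Each sample had 2 numbered columns of values whose meaning the labels do not give. They were summed as repeat measurements of 1 sample and are quoted as the spread of that sample. Such columns can fail to overlap at small differences, as for Ly6e, whose aged TRM level was 0.951 times that of young TCR. A lack of overlap is therefore not read as a separation between conditions. No spread between mice or cultures can be had, and in bulk RNA fewer cells with a transcript and less transcript per cell cannot be told apart. Rises and falls are named by a rule: CPM plus 1 changed 2-fold or more, and the ratio's 95% counting interval left out 1. Log2 ratios are of CPM plus 1, while folds and their counting intervals are of CPM alone, so they differ at low CPM.

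Ly6a, which encodes Sca-1, had 443 CPM in young TCR (445 and 441 in its columns), 1257 CPM in young TRM (1280 and 1239) and 950 CPM in aged TRM (957 and 943). The young TCR sample was low and both TRM samples were high, with no overlap between the columns of any samples. Ly6a rose in young TRM over young TCR by 2.84-fold (counting interval 2.79 to 2.89, log2 ratio 1.502). In aged TRM its level was 0.756 times that of young TRM (0.745 to 0.766, log2 ratio -0.40), which did not pass the 2-fold rule.

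Ly6c1, which encodes 1 of the Ly-6C proteins, had 9.50 CPM in young TCR (9.88 and 9.11), 52.3 CPM in young TRM (56.8 and 48.7) and 6.69 CPM in aged TRM (8.09 and 5.30). Young TRM stood far above the other samples, which were both under 10 CPM, and no columns overlapped. Ly6c1 rose 5.51-fold in young TRM over young TCR (4.93 to 6.16, log2 ratio 2.34). In aged TRM it was 7.81-fold lower than in young TRM (6.88 to 8.91, log2 ratio -2.79), a change that ranked 15 by size among 11575 tested genes. It rested on 272 reads in aged TRM against 1842 in young TRM, and the aged columns were 1.53-fold apart, wider than for any other member.

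Ly6c2, the neighbouring Ly-6C gene, had 235 CPM in young TCR (236 and 234), 306 CPM in young TRM (310 and 303) and 124 CPM in aged TRM (123 and 124). Here the aged sample was the low one, and the young samples were close without overlapping. The level in young TRM was 1.30 times that in young TCR (1.27 to 1.34, log2 ratio 0.38), short of the rule. In aged TRM Ly6c2 fell, to a level 2.48-fold lower than in young TRM (2.40 to 2.56, log2 ratio -1.30).

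Ly6e, which encodes Sca-2, had 552 CPM in young TCR (573 and 531), 750 CPM in young TRM (734 and 763) and 525 CPM in aged TRM (527 and 523). Only young TRM stood apart, since the nearest columns of young TCR and aged TRM were 531 and 527 CPM. The ratio of young TRM to young TCR was 1.36 (1.34 to 1.38, log2 ratio 0.44) and aged TRM was 1.43-fold lower than young TRM (1.40 to 1.46, log2 ratio -0.51), neither past the rule.

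**Figure D1:**
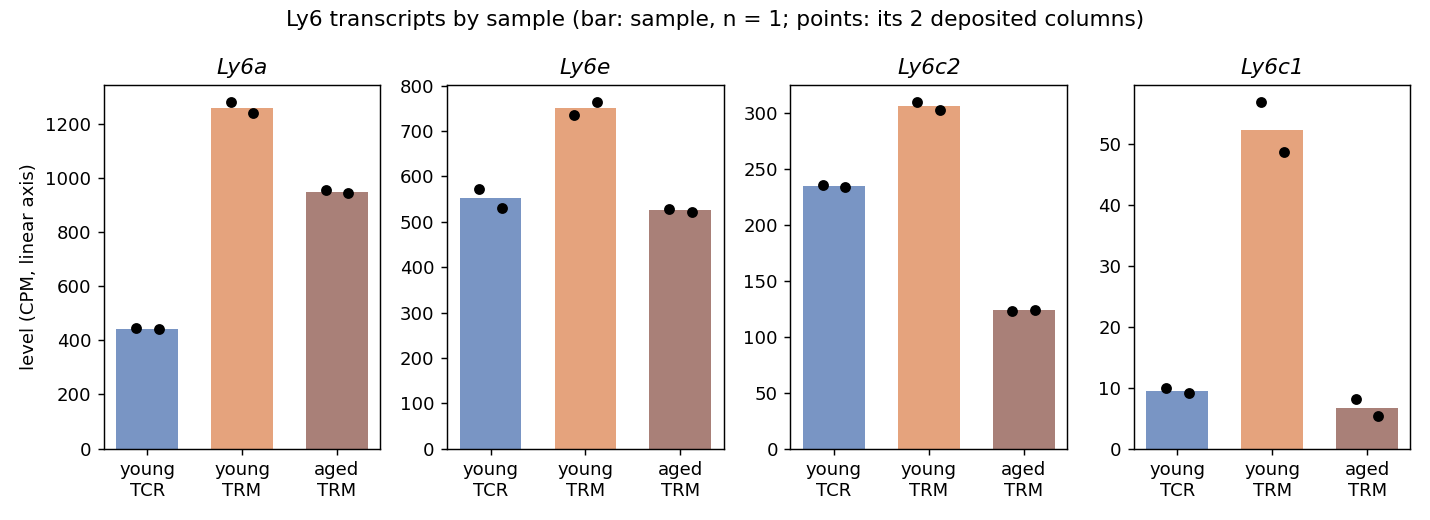
Level of each Ly6 gene (vertical axis, CPM on a linear scale from 0) in the 3 samples. Bars are the samples (n = 1 each) and points the 2 deposited columns of a sample; every gene is highest in young TRM, and Ly6c1 drops from 52.3 to 6.69 CPM in aged TRM.

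Set beside the whole table, 2 of 4 members (Ly6a and Ly6c1) rose with the added cytokines and 0 fell, where 4.18% of 11588 tested genes rose and 3.6% fell. In aged against young TRM 2 of 4 (Ly6c1 and Ly6c2) fell and 0 rose, where 1.15% of 11575 genes fell and 2.25% rose. The members' median log2 ratios were 0.97 and -0.91, against 0.02 and -0.01 over all tested genes. Since the members were known from these contrasts, nothing is read from these shares. The comparisons share the young TRM sample, so a high value there raises the first ratio and lowers the second.

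The log2 ratios of the members kept their direction and their side of the 2-fold rule under 9 other ways of processing. Among the 9, removing the filter on low values left every ratio as it was. For Ly6c1 the log2 ratios ran from 1.98 to 2.45 with the added cytokines and from -2.98 to -2.29 for age.

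**Figure D2:**
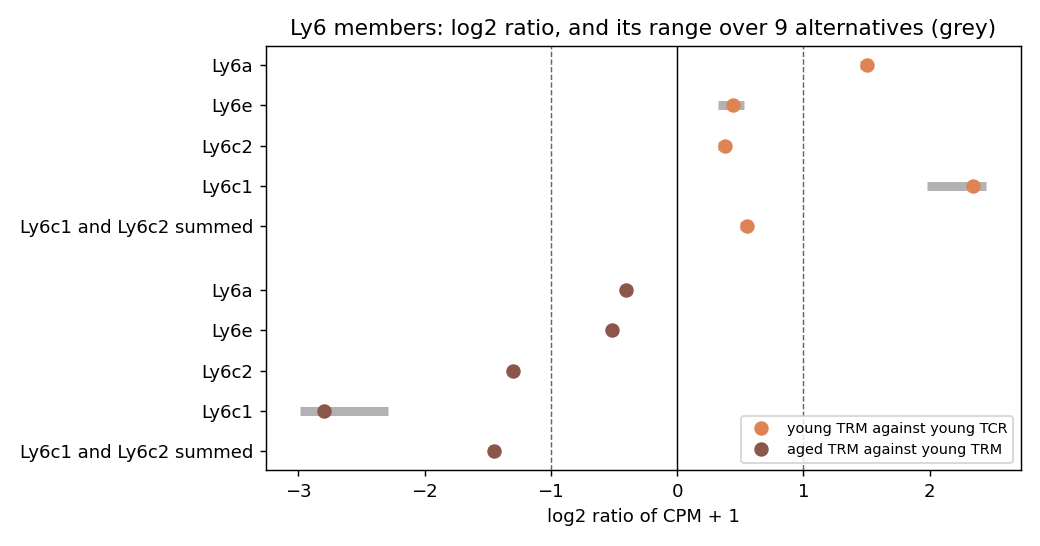
Log2 ratio of CPM + 1 (horizontal axis) for each member and for Ly6c1 and Ly6c2 summed, in young TRM against young TCR (orange) and aged against young TRM (brown). Grey bars span the values under 9 alternatives and dashed lines mark 2-fold; the Ly6c1 bars are the widest and stay beyond 2-fold on either side.

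Because the Ly6c genes are so alike, their reads were also summed. Together they had 244 CPM in young TCR, 358 CPM in young TRM and 130 CPM in aged TRM. From young TCR to young TRM the sum had a ratio of 1.47 (1.43 to 1.51, log2 ratio 0.55), which did not pass the rule. It fell 2.75-fold in aged against young TRM (2.66 to 2.84, log2 ratio -1.45). Ly6c1 gave a minority of these reads in every sample. Its share was 3.89% in young TCR (exact 95% interval 3.52% to 4.29%), 14.6% in young TRM (14.0% to 15.2%) and 5.14% in aged TRM (4.56% to 5.77%). By column the shares were 4.02% and 3.75%, 15.5% and 13.8%, and 6.16% and 4.10%, so young TRM stood apart from the others. In both TRM samples the columns lay outside the interval of their sum, which is thus narrower than the spread between columns. The part of reads that fit both genes in these shares was not tested.

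Between genes, levels can be compared only per transcript length, in the deposited TPM, and the order was the same in all 3 samples: Ly6a, Ly6e, Ly6c2, Ly6c1. In young TCR the first 3 were close, at 945, 709 and 579 TPM, while Ly6c1 had 26.6 TPM. In young TRM Ly6a stood out at 2666 TPM, against 958 for Ly6e, 749 for Ly6c2 and 134 for Ly6c1. Aged TRM had 2080, 689, 313 and 18.9 TPM. Ly6a was thus 1.33 times the level of Ly6e in young TCR, 2.78 times in young TRM and 3.02 times in aged TRM. By TPM Ly6a ranked 138, 60 and 78 among the listed genes in young TCR, young TRM and aged TRM, and Ly6c1 ranked 5341, 1227 and 6587. The members together held 0.126%, 0.231% and 0.162% of all reads.

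Sequence before the genes was compared for Ly6c1 and Ly6c2, since their levels changed by different amounts, and for Ly6a2, a neighbour of Ly6c2. The promoter table from RefSeq (GRCm38.p6) held windows for these. Only bases beyond the annotated span of each gene are shown, on the gene's strand. In the first 2 lines capitals mark bases that differ between Ly6c1 and Ly6c2 or have no partner inside the aligned stretch, and in the third those that differ from Ly6c2. The windows lie at chr15:75048921-75049087, chr15:75112067-75112221 and chr15:75135219-75135378.

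Ly6c1: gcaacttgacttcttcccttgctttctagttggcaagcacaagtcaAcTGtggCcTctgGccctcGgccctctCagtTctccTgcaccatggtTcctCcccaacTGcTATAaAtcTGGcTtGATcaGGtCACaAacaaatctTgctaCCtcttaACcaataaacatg
Ly6c2: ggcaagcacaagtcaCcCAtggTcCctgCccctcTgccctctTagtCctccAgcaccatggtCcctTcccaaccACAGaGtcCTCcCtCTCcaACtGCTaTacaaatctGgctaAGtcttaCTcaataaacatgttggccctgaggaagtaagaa
Ly6a2: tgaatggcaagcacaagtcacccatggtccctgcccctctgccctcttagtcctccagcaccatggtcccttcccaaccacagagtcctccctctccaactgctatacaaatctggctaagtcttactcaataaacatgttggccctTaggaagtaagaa

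Ly6c1 and Ly6c2 matched at 99 of 136 aligned positions (72.8%), well under the 97.7% of their coding sequences. The stretch shown for Ly6a2 was cut where that of Ly6c2 ends. It matched the Ly6c2 stretch at 154 of 155 positions (99.4%). Over the 250 bases before the first listed start, Ly6a2 and Ly6c2 matched at 241 of 250 positions (96.4%). The Ly6c2 stretch adjoins its gene, while the Ly6a2 stretch begins at 75135219 and the annotated span of Ly6a2 ends at 75135128. Ly6a2 had 10, 11 and 4 reads in young TCR, young TRM and aged TRM, where Ly6c2 had 9518, 10788 and 5024. In the 250 bases before the first listed start, both strands of Ly6c1, Ly6c2 and Ly6a2 were searched for TTTCNNTTTC (the core of the interferon-stimulated response element), TTCNNNGAA (the palindrome bound by STAT factors) and CAGACA (a box bound by SMAD factors). None of the 3 windows held any of them. For Ly6c1 and Ly6c2 part of the searched bases lay inside the annotated gene, and a second window listed for each was not searched. Ly6a and Ly6e had no window and could not be searched. Of 27025 genes with a window, 3.04%, 7.18% and 17.1% held the respective motif. This says only that those letters are missing from these windows.

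Among the other Ly6/uPAR genes of the chromosome 15 cluster, 10 were listed and 6 stayed below 1 CPM in every sample, with 0 to 25 reads. The 6 included Ly6g, the neutrophil antigen, with 1, 5 and 9 reads. Of the 4 that reached 1 CPM, Ly6i, a close relative of Ly6a with 86.3% coding identity, had 1.18, 4.57 and 2.61 CPM in young TCR, young TRM and aged TRM. It rose with the added cytokines (log2 ratio 1.35, or 0.63 and no longer past the rule with a pseudocount of 5), and its age ratio was -0.63. Ly6i shares 31 of the 770 windows of 50 bases of the Ly6a transcript (4.03%), so its low count could hold Ly6a reads, which was not tested.

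Ly6k, a gene known from germ cells, had 1.36, 3.07 and 0.910 CPM. It fell in aged against young TRM (log2 ratio -1.09, or -0.45 and short of the rule with a pseudocount of 5), and its cytokine ratio was 0.79, with young TCR columns of 39 and 16 reads. Lynx1, which encodes a modulator of nicotinic acetylcholine receptors, had 2.37, 4.03 and 2.80 CPM and passed the rule in neither comparison. Ly6d, an antigen of early B lineage cells, had 1.41, 0.482 and 0.713 CPM, with a cytokine ratio of -0.70 and too few reads in both TRM samples to be tested for age.

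Away from that cluster, 15 family genes were listed and 4 reached 1 CPM. Ly6g5b, from the major histocompatibility complex, had 4.96, 12.6 and 15.3 CPM. It rose with the added cytokines (log2 ratio 1.19, or 0.82 and short of the rule with a pseudocount of 5) and had an age ratio of 0.26. Lypd6b had 8.29, 2.87 and 2.02 CPM and fell with the cytokines (log2 ratio -1.26, or -0.76 with a pseudocount of 5, again short of the rule). Plaur, the urokinase receptor, had 1.04, 0.369 and 1.23 CPM and Lypd8, known from colon epithelium, 1.70, 2.27 and 2.98 CPM, neither past the rule with the pseudocount of 1. Of these 4 genes 1 rose and 1 fell with the cytokines, and 0 passed the rule for age.

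The members were also set beside the genes around them. Of 42 genes of the reference table within 300 kb of the members 17 were listed, and 3 outside the family were tested. Arc, which encodes a neuronal capsid-like protein, fell from 9.47 to 2.95 CPM with the added cytokines (log2 ratio -1.41) and had 2.85 CPM in aged TRM. Them6 had 21.9, 19.0 and 15.1 CPM and Jrk 4.93, 8.004 and 6.35 CPM, neither past the rule.

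**Figure D3:**
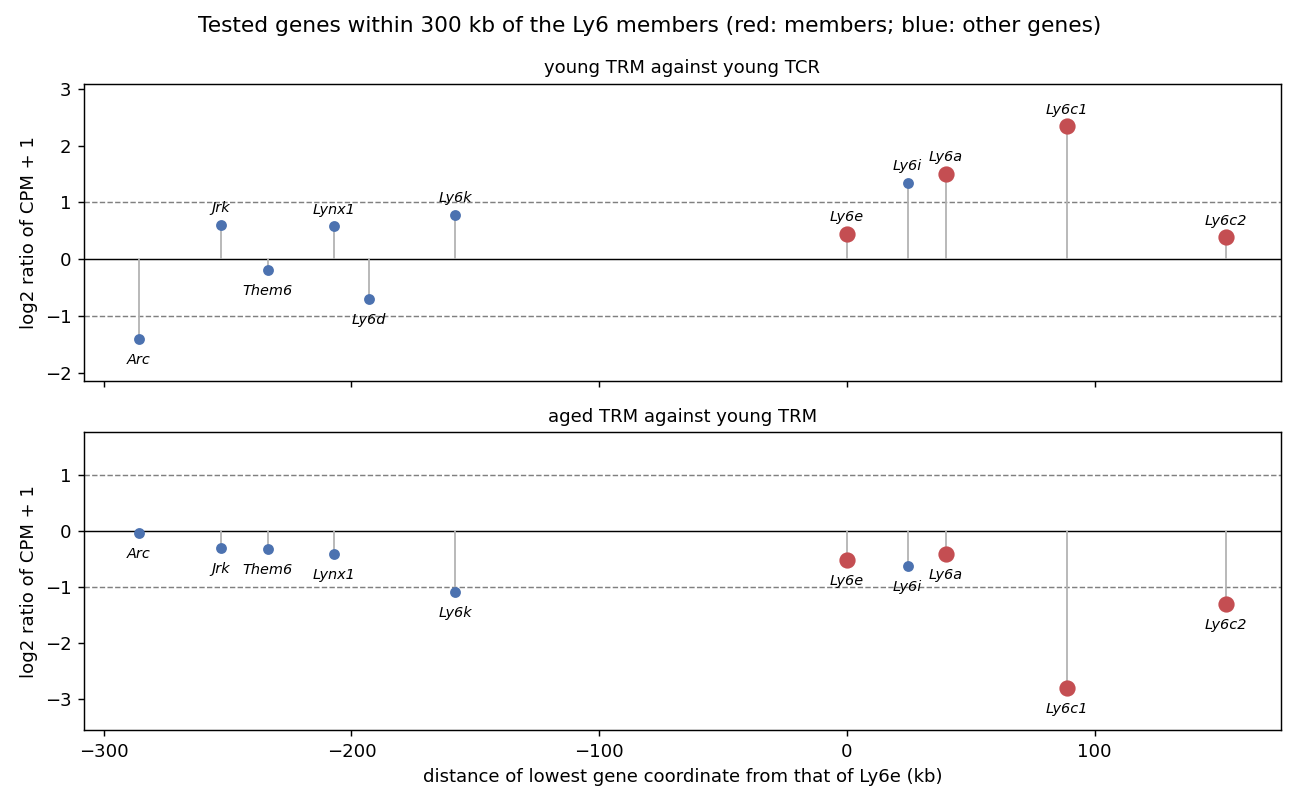
Log2 ratio of CPM + 1 (vertical axis) of the tested genes around the members, by distance of each gene's lowest coordinate from that of Ly6e (horizontal axis, kb), for both comparisons. Members are red and other genes blue; Ly6i, Ly6a and Ly6c1 are above the 2-fold line in the upper panel, and Ly6k, Ly6c1 and Ly6c2 below it in the lower panel.

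The interferon genes were examined because Ly6 genes are known to respond to interferon. Of 36 tested interferon response genes 16 rose and 0 fell in young TRM over young TCR, with a median log2 ratio of 0.84. Ifit3, an antiviral effector, rose from 4.81 to 87.7 CPM, and Isg20, an RNA-degrading enzyme, rose from 3.58 to 91.9 CPM. In aged against young TRM 14 fell and 0 rose, with a median of -0.82 and all 36 ratios below 0. That median was -0.69 with a pseudocount of 5 and -1.03 with a pseudocount of 0.1. Ifit3 fell to 12.1 CPM and Isg20 to 28.8 CPM. The list median and the ratios of the 4 members thus had the same sign in each comparison, in samples they share. These signs were not particular to the interferon list. Medians were 0.68 and -0.63 for the other chromosome 15 Ly6/uPAR genes, and 0.22 and -0.89 for CD4 and regulatory T cell genes. B and plasma cell genes went the other way, at -1.61 and 0.62. A part of interferon in the Ly6 levels was not tested. Set beside young TCR as values, where age and cytokines both differ, aged TRM had 2.14 times the level for Ly6a, 0.705 times for Ly6c1, 0.526 times for Ly6c2 and 0.951 times for Ly6e. The 36 interferon response genes summed to 3384 CPM in young TCR, 7448 CPM in young TRM and 4566 CPM in aged TRM. Their sum in aged TRM was thus above that of young TCR, though single genes of the list lay on either side.

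Genes that carry the interferon signal had a smaller median. Of 13 genes for interferon receptors, kinases, transcription factors and ligand, 4 rose and 0 fell with the cytokines (median 0.21). Among them were Ifngr2, a chain of the interferon gamma receptor (18.0 to 90.5 CPM), and the transcription factors Irf1 (313 to 772 CPM) and Stat2 (56.5 to 122 CPM). For age the median was -0.50, and 1 gene rose: Ifng, which encodes interferon gamma itself, had 103, 82.1 and 478 CPM. Irf1 had 427 CPM in aged TRM, with an age ratio of -0.85 that did not pass the rule.

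Other GPI-anchored surface proteins did not share the members' pattern as a list. Of 16 tested, 2 rose and 3 fell with the cytokines (median 0.06), and 2 rose and 1 fell with age (median 0.12). Nt5e, the ectoenzyme CD73, rose from 40.5 to 292 CPM and had 321 CPM in aged TRM, and Sema7a, a semaphorin, rose from 40.1 to 112 CPM and had 121 CPM. Bst1, an ectoenzyme also called CD157, fell from 15.9 to 1.28 CPM and rose to 7.99 CPM in aged TRM. Art2b and Efna5 were the others that fell with the cytokines (119 to 55.3 CPM and 4.69 to 0.0284 CPM), and Cd160 the other that rose with age (18.7 to 38.8 CPM). Cd24a, the heat stable antigen, had 18.4 and 36.5 CPM in the young samples and fell to 10.9 CPM in aged TRM. Genes that build and attach the GPI anchor were level: of 29 tested, 0 rose and 0 fell in either comparison, with medians of -0.04 and -0.01. The widest of these was Pgap1, a GPI deacylase, at 19.1, 11.5 and 11.2 CPM.

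Ly-6C marks memory CD8+ T cells, so a list of memory-phenotype genes was examined too. Of 20 tested, 2 rose and 3 fell with the cytokines (median -0.06), and 2 rose and 2 fell with age (median -0.11). S1pr1, a receptor for exit from tissue, had 51.4, 50.2 and 14.5 CPM and fell with age. Klrc1, which encodes the inhibitory receptor chain NKG2A, rose in both comparisons (40.01, 117 and 249 CPM). Ccl5, a chemokine, fell from 32.3 to 4.74 CPM with the cytokines and rose with age (log2 ratio 1.48). Bcl2, a survival factor, was the other gene that rose with the cytokines (308 to 788 CPM), and Eomes (217 to 93.5 CPM) and Gzmm (4.12 to 1.16 CPM) the others that fell.

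**Figure D4:**
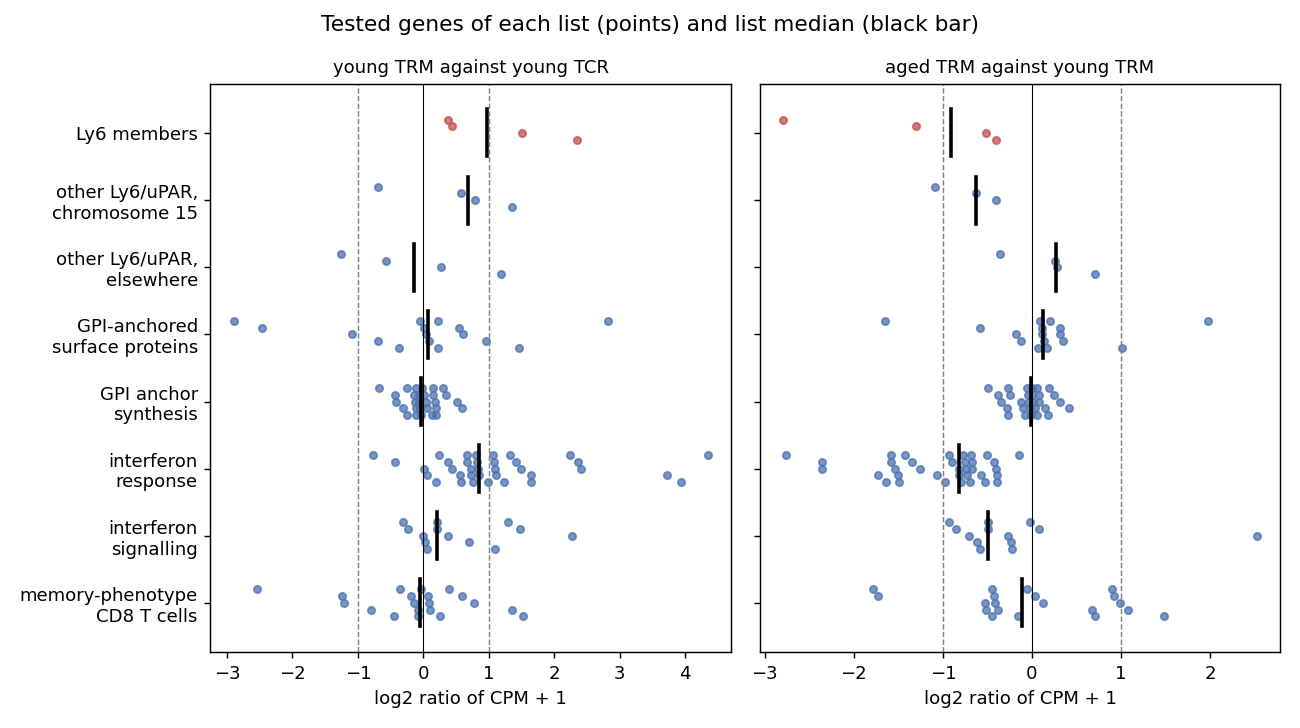
Log2 ratio of CPM + 1 (horizontal axis) of every tested gene in 8 lists, for both comparisons; points are genes, black bars list medians and dashed lines 2-fold. The members have medians of 0.97 and -0.91, the interferon response list 0.84 and -0.82, and the other chromosome 15 Ly6/uPAR genes 0.68 and -0.63. GPI anchor synthesis genes lie around 0.

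Genes with the most similar pattern over the 3 samples were sought among 4954 genes that reached 50 CPM in at least 1 sample, by the root-mean-square difference of log2 levels centred on their mean. With 3 samples many genes lie close by. For Ly6a they were H2-M3 (difference 0.009; 31.5, 91.4 and 69.6 CPM), Ptprj (0.025) and Dip2b (0.027), and 84 genes were within 0.2. For Ly6e the closest were Hbp1, Ctdsp1 and Plcb2 (0.011 to 0.017), with 1466 genes within 0.2. Ly6c2 was closest to Pag1 (0.119), Arhgef18 (0.127) and Ifi209 (0.147), with 11 genes within 0.2. Ly6c1 had no gene within 0.2. Its closest were Ifit1bl1 (0.425; 33.1, 148 and 41.7 CPM), Klf2 (0.438; 35.0, 151 and 43.8 CPM) and Ifi206 (0.443; 31.5, 79.0 and 18.8 CPM). Between members the difference ran from 0.386 for Ly6c2 and Ly6e to 0.997 for Ly6c1 and Ly6e.

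T cell markers were present throughout, with Cd8a at 747, 1822 and 1632 CPM and Cd3e at 302, 380 and 364 CPM in young TCR, young TRM and aged TRM. Of 10 tested T cell genes 1 rose with the cytokines, Cd8a, and none passed the rule for age. Marker lists of cells that are known for high Ly6 levels follow. The 14 monocyte, macrophage and dendritic cell genes summed to 99.4, 154 and 131 CPM, with 2 risen (Ctss, Mpeg1) and 2 fallen (Ccr2, Itgax) of 8 tested with the cytokines and 0 for age. The largest part of that sum was Ctss (40.5, 102 and 89.2 CPM). Without Ctss the other 13 genes summed to 58.9, 52.0 and 42.1 CPM, lowest in aged TRM. Mpeg1 had 4.22, 28.7 and 15.4 CPM and Ccr2 had 29.0, 8.51 and 12.1 CPM. Csf1r had 0.222, 0.227 and 0.197 CPM, Lyz2 had 0.913, 0.596 and 0.861 CPM, and Adgre1 was at 0 in young TRM. The 11 endothelial and stromal genes summed to 81.1, 73.8 and 58.2 CPM, of which Pecam1 gave 76.5, 70.7 and 53.5 CPM. Cdh5 was at 0 in young TCR and Tek at 0 in young TRM, and none of the list passed the rule. The 9 neutrophil genes summed to 6.46, 9.48 and 7.04 CPM, and S100a8 had 0.296, 0.511 and 0.640 CPM.

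Markers of other lymphocytes did move. The 11 B and plasma cell genes summed to 54.6, 18.2 and 27.2 CPM, with 7 of 9 tested fallen with the cytokines and 3 of 7 risen with age, Ms4a1 and Pax5 among them. Ms4a1, which encodes CD20, had 7.40, 0.426 and 1.89 CPM. The 6 CD4 and regulatory T cell genes summed to 181, 376 and 201 CPM. Ikzf2 carried the high sum in young TRM (117, 315 and 168 CPM). Without it the other 5 genes summed to 64.1, 61.2 and 33.4 CPM, lowest in aged TRM. With the cytokines 2 of 5 tested rose (Foxp3 and Ikzf2) and 2 fell (Zbtb7b and Trat1), and 1 fell with age. Foxp3, the regulatory T cell factor, rose from 1.95 to 33.6 CPM and fell to 3.71 CPM with age, while Cd4 had 10.51, 12.4 and 11.6 CPM. The 9 NK and innate lymphoid genes summed to 252, 191 and 197 CPM, with 5 risen (Ncr1, Klrb1c, Kit, Fcer1g and Tyrobp) and 1 fallen (Eomes) with the cytokines and 0 past the rule for age. Eomes, which CD8+ T cells also express, carried much of that sum, and without it the other 8 genes summed to 35.4, 97.8 and 132 CPM, lowest in young TCR. Kit gave most of this remainder (29.6, 78.4 and 110 CPM). The other genes that rose were low, the highest being Fcer1g (1.23, 4.51 and 3.64 CPM). The list median with the cytokines was 1.05, or 0.33 with a pseudocount of 5. The 7 red cell and platelet genes summed to 14.8, 7.01 and 16.2 CPM, with 1 risen (Hbb-bt) and 2 fallen (Pf4 and Ppbp) of 4 tested with the cytokines and 1 risen (Hbb-bt) of 5 with age. The part of any of these cells in the Ly6 levels was not tested.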

How the data were processed

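RNA of 3 mouse CD8+ T cell samples, 1 per group, was sequenced on a HiSeq instrument, per the labels' protocols, and the submitters' processing notes name Bowtie and GRCm38 (mm10) without versions. The deposited table gave estimated counts per gene, taken as such because they are not always whole, and TPM made by the authors. The labels name no counting program. Each sample had 2 numbered columns, which were rounded and summed to 39915663 (young TCR), 36021887 (young TRM) and 40385477 (aged TRM) reads. A further 24 value columns were not used, and 23 symbols stored as dates were replaced through their gene IDs.

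Libraries were scaled by TMM factors (1.02, 0.978 and 1.01) from edgeR 4.0.16 in R 4.3.3, and a column by the factor of its sample. Ratios were computed in Python 3.11.15 with scipy 1.17.1. A gene was tested at 1 CPM or more in either sample compared, and called if its log2 ratio of CPM with a pseudocount of 1 was at least 1 in size and its 95% Clopper-Pearson ratio interval excluded 1. Intervals cover counting error only, and can be too narrow even for that, since reads are not independent molecules. No p-value was computed, with 1 sample per group. The calling rule was tested on simulated counts that held counting error only. That test cannot show how the rule does with variation between mice or with reads that fit more than 1 gene. The members, the 17 gene lists and the rules were chosen with earlier results of these data known. Of each list up to 4 genes of at least 10 CPM with the widest ratios were named, beside set cell type and interferon markers. Genes named to complete a count of 5 or fewer, the genes at 0, and Arc and Jrk were chosen after their values were seen. Some genes of the lists are counted but not reported by name here. Members were aligned with the transcripts of GENCODE M21 (GRCm38).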

Additional observations from a re-analysis of the deposited data

How the results depend on the processing

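The alternatives were scaling by library totals or by size factors of DESeq2 1.42.0, pseudocounts of 5 and 0.1, no filter and a filter at 10 CPM, the deposited TPM, and either numbered column alone. All 8 log2 ratios of the members and both of the summed Ly6c genes kept their direction and their side of the 2-fold rule under these 9 alternatives. Removing the filter gave the same scaling factors and call counts as the main analysis, so that alternative could not have differed. With the added cytokines Ly6a ran from 1.45 to 1.504, Ly6c2 from 0.33 to 0.38 and Ly6e from 0.32 to 0.53, and for age they ran from -0.42 to -0.36, from -1.32 to -1.26 and from -0.55 to -0.47.

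Counts over all genes moved by more than 1.5 times with the pseudocount and the filter. With a pseudocount of 5, genes called in young TRM against young TCR were 296 higher and 190 lower (484 and 417 in the main analysis), and in aged against young TRM 87 higher and 62 lower (260 and 133). With a pseudocount of 0.1 the age counts were 472 and 208. With the 10 CPM filter 240 were lower in the first comparison, and 128 higher and 86 lower in the second, since fewer genes were tested. The causes of the pseudocount shifts were not tested beyond its construction, which shrinks or widens ratios of low genes.

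With 1 sample per group no difference was set against variation between mice. No paired analysis was possible because each group has 1 sample. Depth limits the weakly expressed family genes, whose calls (Ly6i, Ly6k, Ly6g5b and Lypd6b) all ended with a pseudocount of 5. Calls were also gained: with a pseudocount of 0.1 Ly6k (1.12), Ly6d (-1.37) and Plaur (-1.28) passed the rule with the added cytokines and Plaur (1.504) for age, Ly6k did so with the cytokines on the second column alone (1.22) and Ly6d in TPM (-1.11).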
